A study of Rattus norvegicus with 18 samples.

Results

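Interleukin-6 (IL-6) family cytokines and tumor necrosis factor (TNF) are among the main signals by which macrophages, epithelial cells and stromal cells of the lung respond to particles. The genes described here are 10 members of the pathways, chosen by symbol from the 22081 genes of the deposited tables: the ligands Il6, Osm, Lif and Tnf, the receptor chains Il6r, Il6st, Osmr and Tnfrsf1b, and the feedback inhibitors Socs3 and Tnfaip3. RNA-Seq was performed on lungs of 18 male F344 rats in 6 groups of 3, which had received the vehicle (control) or the multiwalled carbon nanotube MWNT-7 (MWCNT) and were examined at Year 0.5, Year 1 or Year 2. Dosing was intratracheal and began at 9 weeks of age, with 0.5 mg/kg of MWNT-7 every 4 weeks in the treated rats and saline with Tween 80 in the controls. The RNA came from a small piece of the accessory lobe, and tissue with grossly visible tumor nodules had been set aside. The rats were housed 3 to a cage, and which rats shared a cage is not known here.

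IL-6 family ligands signal through receptor complexes that share the chain gp130, encoded by Il6st. IL-6 binds gp130 with the IL-6 receptor (Il6r), oncostatin M (Osm) binds gp130 with the oncostatin M receptor (Osmr) or the leukemia inhibitory factor receptor (Lifr), and leukemia inhibitory factor (Lif) binds gp130 with Lifr. The complexes activate JAK kinases and STAT3, and STAT3 induces Socs3, which blocks the receptor in turn. TNF acts through the receptors encoded by Tnfrsf1a and Tnfrsf1b and activates NF-kB, which induces Tnfaip3 (A20), a ubiquitin-editing enzyme that restrains the same route.

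Promoter sequence is shown for a ligand of each family, for Osmr, the member receptor chain with the largest fold changes, and for Tnfaip3, whose level did not change significantly, so that the letters near their start sites can be read beside the expression values. RefSeq (GRCr8) entries were found for 8 of the 10 members, and Osm and Lif are named only. The 250 bases upstream of the start site are printed 5′ to 3′ on the strand of the gene, and capitals mark matches to 5 motifs. The genome regions are chr4:5894576-5894825 on the minus strand for Il6, chr2:57688562-57688811 on the minus strand for Osmr, chr20:3626435-3626684 on the plus strand for Tnf and chr1:15543980-15544229 on the minus strand for Tnfaip3.
Il6: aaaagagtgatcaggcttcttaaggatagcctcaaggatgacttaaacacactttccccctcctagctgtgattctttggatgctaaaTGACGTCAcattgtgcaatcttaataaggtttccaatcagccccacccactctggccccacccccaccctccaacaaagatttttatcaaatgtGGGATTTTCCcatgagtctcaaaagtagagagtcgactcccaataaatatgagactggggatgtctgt
Osmr: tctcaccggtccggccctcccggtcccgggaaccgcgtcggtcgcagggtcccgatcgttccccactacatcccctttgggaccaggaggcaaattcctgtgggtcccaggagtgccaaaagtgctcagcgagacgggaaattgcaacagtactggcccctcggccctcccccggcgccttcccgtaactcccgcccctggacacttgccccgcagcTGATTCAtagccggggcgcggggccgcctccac
Tnf: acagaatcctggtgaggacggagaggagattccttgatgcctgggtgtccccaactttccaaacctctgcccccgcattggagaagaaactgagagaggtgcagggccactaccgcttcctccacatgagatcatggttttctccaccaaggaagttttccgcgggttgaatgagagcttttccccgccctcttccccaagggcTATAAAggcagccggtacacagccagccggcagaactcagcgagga
Tnfaip3: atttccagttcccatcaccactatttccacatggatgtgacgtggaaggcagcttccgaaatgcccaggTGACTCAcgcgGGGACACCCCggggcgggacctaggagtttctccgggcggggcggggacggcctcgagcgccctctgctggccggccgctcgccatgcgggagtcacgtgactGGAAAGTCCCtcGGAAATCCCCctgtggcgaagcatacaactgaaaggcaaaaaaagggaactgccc

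The motifs searched were the cAMP response element TGACGTCA, the AP-1 site TGANTCA, the STAT site TTCNNNGAA and the kappaB consensus, each on both strands, and the TATA box TATAAA on the strand of the gene. Il6 held a cAMP response element from 162 to 155 bases upstream of the start and a kappaB match from 68 to 59 bases upstream. Tnfaip3 held 3 kappaB matches and an AP-1 site. Osmr held an AP-1 site, and Tnf held a TATA box. The matches did not overlap. Among the 33469 promoters of the same length, 1.59% held the cAMP response element, 6.34% the AP-1 site, 7.67% the STAT site, 5.18% the kappaB consensus and 8.06% the TATA box. None of the 8 members held a STAT site in this window, Socs3 held a kappaB match and Tnfrsf1b an AP-1 site, and Il6r and Il6st held none of the 5.

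Library totals ranged from 13297643 to 21130757 counted reads. Differentially expressed genes (DEGs) met a false discovery rate (FDR, edgeR's quasi-likelihood test) under 0.05 together with a log2 fold change beyond 1 in either direction, and "rose" or "fell" is used here for an FDR under 0.05, whatever the size. Levels are given as TPM, which is scaled by gene length and so can be compared between genes. On log2(TPM + 1) the median log2 fold change of all genes was -0.15, -0.21 and -0.20 at Years 0.5, 1 and 2. Differences in TPM between treatments are therefore shifted downward against edgeR's fold changes. In bulk tissue, fewer cells of a type and less RNA per cell cannot be told apart. The summed TPM of 7 macrophage markers was 294 to 390 in control rats and 718 to 1045 in MWCNT-treated rats, that of 6 neutrophil markers 212 to 383 and 368 to 1147, although S100a8 and S100a9 were the 2 of the 6 that were DEGs in any year, and that of 4 endothelial markers 945 to 1308 and 347 to 665. In the same order of treatments, 5 alveolar type 2 markers summed to 26940 to 35480 and 50040 to 59460. Sums of 5 type 1 markers were 4335 to 5120 and 2314 to 3357, and of 4 ciliated cell markers 34.37 to 61.97 and 18.96 to 31.55. Those of T cell, B cell, fibroblast, mesothelial and heart muscle markers overlapped, with lower means in MWCNT-treated rats at each time point. Of the 7 macrophage markers, 3, 2 and 5 were upregulated DEGs at Years 0.5, 1 and 2, with Cd68 and Marco among them each time. Upregulated DEGs were 6.07%, 6.13% and 8.17% of all genes. Cd163 was a downregulated DEG at Year 1. The neutrophil markers other than S100a8 and S100a9 neither rose nor fell at any time point. None of these markers was at 0 in every rat. The part of such shifts in the values below was not tested.

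Among the members, Il6st was the most abundant transcript in both treatments, and Il6 the least. In control rats the mean TPM over 9 rats was 159 ± 21.4 (SD) for Il6st, 83.7 ± 34.1 for Socs3, 50.5 ± 5.59 for Tnfrsf1b and 45.9 for Il6r (range 39.2 to 58.9). Lower levels were found for Tnfaip3 (25.4 ± 5.13), Osmr (12.1 ± 1.42), Osm (2.01 ± 0.706), Lif (1.10 ± 0.397) and Il6 (0.353 ± 0.302). Ranges over rats overlapped between neighbours in this order from Il6st to Il6r, and from Osm to Il6, but not between Il6r and Tnfaip3 or between Tnfaip3 and Osmr. In MWCNT-treated rats Osmr reached 23.3 ± 2.36 and stood beside Tnfaip3 at 23.1 ± 4.46, with overlapping ranges.

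**Figure D1:**
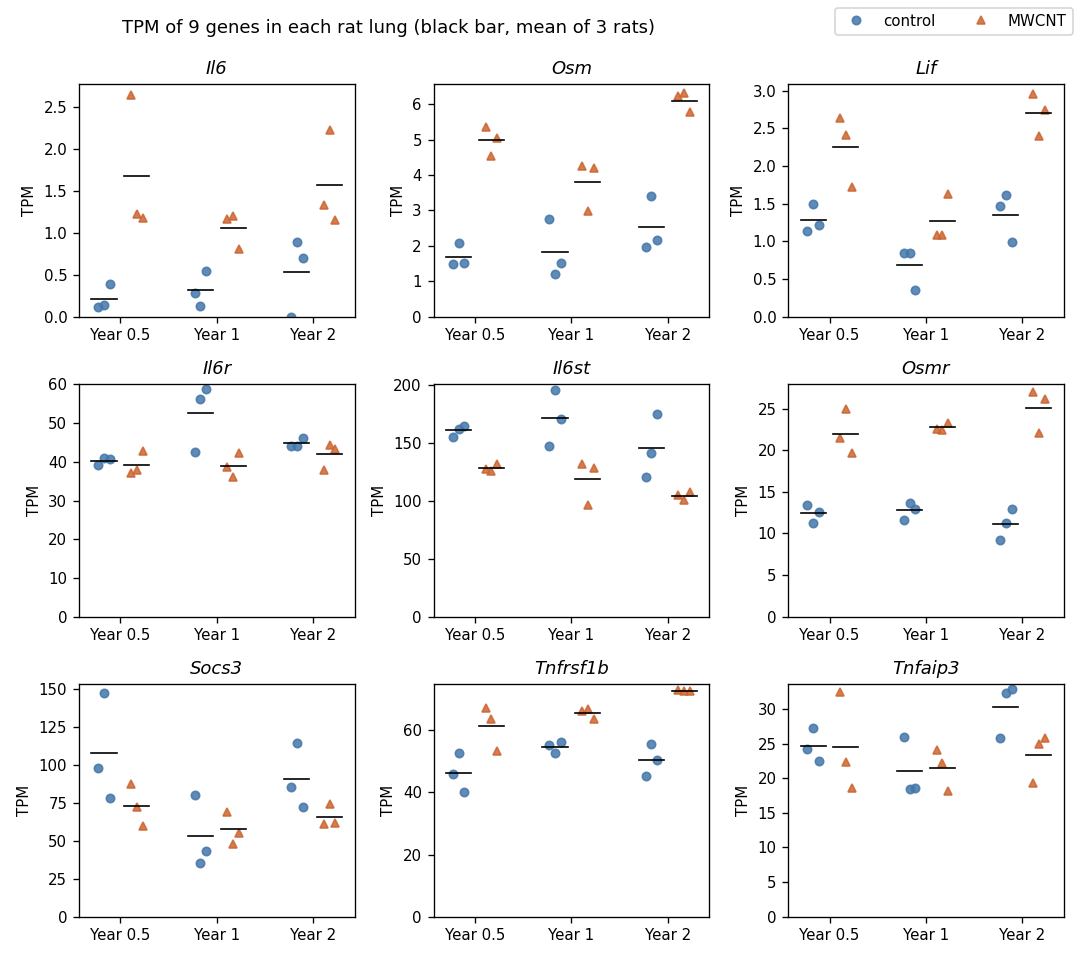
TPM of 9 members in each of the 18 rats by time point, with circles for control rats, triangles for MWCNT-treated rats and a black bar for the mean of 3 rats. The 9 MWCNT-treated rats lie between 19.7 and 27.1 for Osmr, above all 9 control rats, whereas the groups overlap for Socs3 and Tnfaip3. In CPM, 23.4% of all genes separate the 9 rats of each treatment, in either direction.

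Of the ligands, Osm was a DEG at all 3 time points. Its gene lies at chr14:84465515-84470409 (Rnor_6.0). At Year 0.5, Osm TPM was 1.48, 2.08 and 1.52 in control rats and 5.35, 4.54 and 5.03 in MWCNT-treated rats. At Year 1 the values were 2.77, 1.21 and 1.51 in control rats and 4.25, 2.99 and 4.19 in MWCNT-treated rats, and at Year 2 they were 1.96, 3.41 and 2.17 against 6.22, 6.30 and 5.77. The groups did not overlap within any year, in TPM or in CPM, which in CPM 51.6%, 54.9% and 59.9% of all genes also showed at Years 0.5, 1 and 2. The log2 fold change was 1.70 (SE 0.21, FDR 0.000338, n = 3 per group, edgeR) at Year 0.5, 1.29 (SE 0.31, FDR 0.00989) at Year 1 and 1.49 (SE 0.22, FDR 0.00046) at Year 2. At Year 0.5, Osm was the single DEG among the 8 members that entered the fit, and 9.10% of all 14315 genes tested were DEGs (6.07% upregulated and 3.03% downregulated). By FDR alone 5 of the 8 members moved, beside 38.8% of all genes. Fitted without the filter, Il6 and Tnf were DEGs as well, which made 3, and leaving out any 1 of the 6 rats gave 2 to 4 members called.

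Lif, which lies 12.27 kb from Osm on the same strand, rose at all 3 time points, and its change exceeded the fold limit at Year 1 and Year 2. At Year 2, Lif TPM was 1.46, 1.61 and 0.987 in control rats and 2.95, 2.39 and 2.75 in MWCNT-treated rats. There was no overlap, which in CPM 59.9% of all genes also showed at Year 2. The log2 fold change was 0.97 (SE 0.28, FDR 0.0247, edgeR) at Year 0.5, 1.14 (SE 0.40, FDR 0.0473) at Year 1 and 1.20 (SE 0.29, FDR 0.00775) at Year 2. At Year 1 the counts were low, at 13, 14 and 7 reads in control rats and 20, 23 and 30 in MWCNT-treated rats. The Year 1 FDR went above 0.05 when any 1 of the 6 rats was left out, at 0.0590 to 0.157.

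Il6 was counted at a few reads per lung, and too few rats reached the minimum of the low-count filter for it to enter the yearly fits. Without that filter its log2 fold change was 3.03 (FDR 0.00779, edgeR) at Year 0.5, 1.90 (FDR 0.0449) at Year 1 and 1.77 (FDR 0.0952) at Year 2, so that it was a DEG at Years 0.5 and 1. In control rats the counts were 1, 1 and 3 at Year 0.5, 2, 1 and 5 at Year 1 and 0, 7 and 5 at Year 2. In MWCNT-treated rats they were 22, 14 and 10, then 10, 12 and 7, then 11, 21 and 10. In counts scaled to library size (CPM, TMM-adjusted), every MWCNT-treated rat (0.464 to 1.49) was above every control rat (0 to 0.448), which 23.4% of all genes also showed in either direction. This gap was narrow, since the highest control count and the lowest treated count were both 7 reads. In TPM the treatments overlapped, with a control maximum of 0.890 and a treated minimum of 0.809. The pooled reads gave a ratio of 8.52 (95% counting interval 3.40 to 27.5) at Year 0.5, 3.79 (1.69 to 9.60) at Year 1 and 3.51 (1.81 to 7.32) at Year 2. These intervals cover counting error only. In the model of all 18 rats the mean log2 fold change over the 3 years was 2.23 (SE 0.41). Il6 entered that model through treated rats alone, since 5 of 9 treated and 0 of 9 control rats reached the filter's minimum of 0.642 CPM, so its call there is no independent support. A two-sided exact permutation test within year over the 18 rats gave p = 0.00025, the smallest value that its 8000 arrangements allow, and within a single year 3 rats against 3 cannot go below 0.1.

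For a pair of entries of the deposited table, the reads of each rat lay almost wholly under 1 of them. One is Tnf, at chr20:4855829-4858447 on the plus strand, and the other is LOC103694380, at chr20:5189390-5192000 on the minus strand, 331 kb away with a length ratio of 1.00 by the deposited counts and TPM. In each rat at least 98.0% of the reads of the pair lay in 1 of the entries: in 9 rats the reads were listed under Tnf and in 9 under LOC103694380. The fuller entry held 34 to 132 reads, and the other at most 1.

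**Figure D2:**
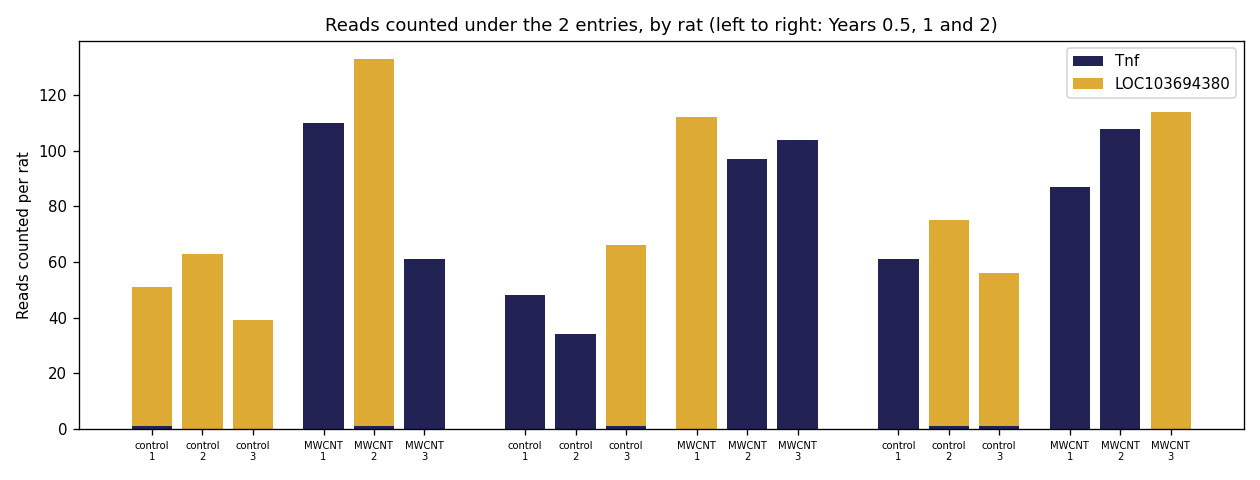
Reads counted under Tnf (dark) and LOC103694380 (yellow) in each rat, stacked, with control and MWCNT-treated rats of Years 0.5, 1 and 2 from left to right. Nearly every bar is of 1 color, and the sums are 34 to 75 reads in control rats and 61 to 133 reads in MWCNT-treated rats.

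Under the Tnf entry alone, the counts were 1, 0 and 0 in control rats and 110, 1 and 61 in MWCNT-treated rats at Year 0.5. At Year 1 they were 48, 34 and 1 against 0, 97 and 104, and at Year 2 they were 61, 1 and 1 against 87, 108 and 0. Rats with the reads under Tnf were 6 of 9 treated and 3 of 9 control rats, a difference with p = 0.347 in a two-sided Fisher's exact test. At Year 0.5 the Tnf entry failed the filter because 2 rats held nearly all its reads, and its log2 fold change was 1.26 (SE 1.11, FDR 0.386, edgeR) at Year 1 and 1.60 (SE 1.33, FDR 0.346) at Year 2. Over the 3 years together, the Tnf entry was a DEG with a log2 fold change of 3.28 (SE 1.15, FDR 0.0187) in edgeR's test, but a two-sided exact permutation test within year gave p = 0.159.

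When the reads of the pair were added, a choice made after the split was seen, the spread between rats of a group narrowed. The sums in control rats were 51, 63 and 39 at Year 0.5, 48, 34 and 66 at Year 1 and 61, 75 and 56 at Year 2. In MWCNT-treated rats they were 110, 133 and 61, then 112, 97 and 104, then 87, 108 and 114. Year 0.5 overlapped in CPM through treated rat 3. Years 1 and 2 did not, as was so for 54.9% and 59.9% of all genes. The summed reads rose by a log2 fold change of 0.86 (SE 0.29, FDR 0.0460, edgeR) at Year 0.5, 1.16 (SE 0.22, FDR 0.00329) at Year 1 and 0.68 (SE 0.18, FDR 0.0113) at Year 2, and by 0.90 (SE 0.14, FDR 2.48e-05) over the 3 years. The sum was a DEG at Year 1, and below the fold limit elsewhere. Its TPM was 4.35 ± 1.06 (SD) over 9 control rats and 7.01 ± 1.21 over 9 MWCNT-treated rats, between Osmr and Osm in level. With the sum in place of the Tnf entry, 4 members were DEGs at Year 1 and 4 over the 3 years. The files do not state whether LOC103694380 is a second copy of Tnf, nor how reads that map to several places were assigned. Whether the summed reads all came from Tnf was not tested. Among the 14105 genes with at least 30 reads in some rat, 184 (1.30%) had at most 3 and at least 30 reads in rats of the same group.

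Of the 4 receptor chains among the members, Osmr was the one that reached the fold limit. At Year 0.5, Osmr TPM was 13.5, 11.3 and 12.6 in control rats and 21.5, 25.0 and 19.7 in MWCNT-treated rats. At Year 1 it was 11.7, 13.7 and 12.99 against 22.5, 22.4 and 23.3, and at Year 2 it was 9.20, 11.3 and 12.9 against 27.1, 22.1 and 26.2. No treated rat overlapped with any control rat of any year, which in CPM 23.4% of all genes also showed in either direction. The log2 fold change was 0.97 (SE 0.12, FDR 0.000328, edgeR) at Year 0.5, just under the limit, 1.07 (SE 0.09, FDR 3.63e-05) at Year 1 and 1.39 (SE 0.13, FDR 3.07e-05) at Year 2. With Lif and Osm, 3 of 9 members tested were DEGs at Year 1 (10.2% of all genes, 6.13% upregulated, 4.09% downregulated) and the same 3 at Year 2 (16.4%, of which 8.17% upregulated and 8.22% downregulated). By FDR alone 4 of 9 members moved in each of these years, beside 41.2% and 49.2% of all genes. The mean of the 3 years gave 5 DEGs among 10 members (13.4% of all genes, 7.72% upregulated and 5.67% downregulated), namely Lif, Osm, Osmr, Il6, which entered through treated rats alone, and the Tnf entry, and by FDR alone 7 moved, beside 66.1% of all genes. With limma on log2(TPM + 1), a scale that shrinks the changes of low genes, 0 members were DEGs at Year 1 and 0 over the 3 years.

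**Figure D3:**
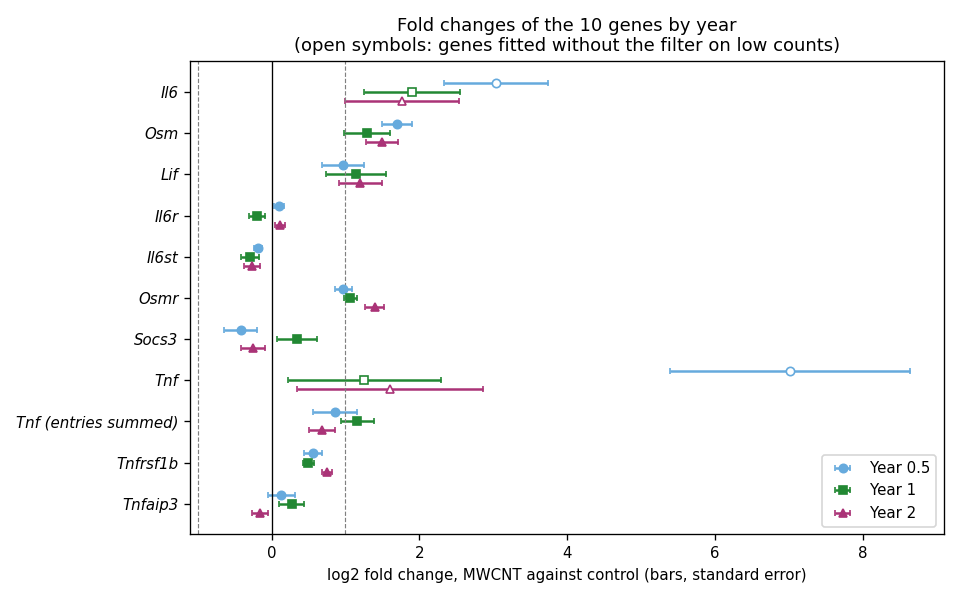
log2 fold change of MWCNT-treated against control rats for each member at Years 0.5, 1 and 2, with SE bars, dashed lines at the fold limit and open symbols for Il6 and Tnf, fitted without the filter on low counts. The Tnf entry shows SE bars wider than those of the summed reads, and its Year 0.5 point rests on 1 control read and depends on the prior count.

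Lifr, the alternative partner of gp130 for oncostatin M and the receptor of Lif, moved the other way. Lifr TPM at Year 2 was 59.9, 78.1 and 83.2 in control rats and 28.4, 27.4 and 32.0 in MWCNT-treated rats. Its log2 fold change was -0.69 (FDR 0.00317, edgeR) at Year 0.5, -0.91 (FDR 0.00167) at Year 1 and -1.11 (FDR 3.73e-05) at Year 2, when it was a DEG. The ratio of Osmr to Lifr TPM was chosen for display after Osmr and Lifr had been seen to move apart. It was 0.116 ± 0.0204, 0.120 ± 0.0101 and 0.151 ± 0.00579 (SD, n = 3) in control rats at Years 0.5, 1 and 2, and 0.369 ± 0.0956, 0.485 ± 0.120 and 0.859 ± 0.0808 in MWCNT-treated rats. Every treated rat (0.273 to 0.952) was above every control rat (0.0991 to 0.156) and the ratio is given as a description, with no test.

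**Figure D4:**
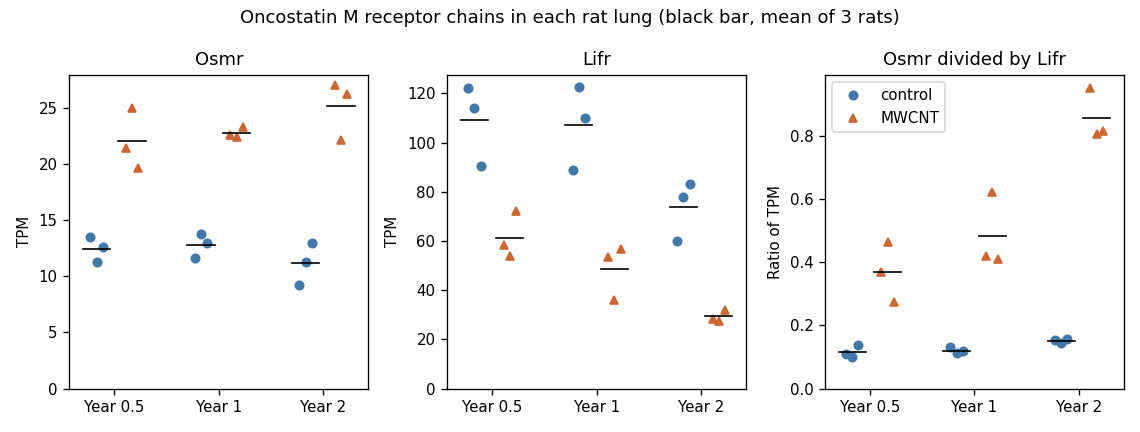
TPM of Osmr and Lifr and the ratio of Osmr to Lifr in each rat, with circles for control rats, triangles for MWCNT-treated rats and a black bar for the mean of 3 rats. The ratio lies between 0.0991 and 0.156 in control rats and between 0.273 and 0.952 in MWCNT-treated rats.

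The shared chain Il6st was slightly lower. At Year 0.5, Il6st TPM was 155, 163 and 165 in control rats and 128, 126 and 131 in MWCNT-treated rats. The log2 fold change was -0.18 (SE 0.06, FDR 0.0296, edgeR) at Year 0.5, and -0.29 (FDR 0.0717) and -0.26 (FDR 0.0745) at Years 1 and 2, and it fell by 0.25 (SE 0.06, FDR 0.0023) over the 3 years. Il6r, the chain specific to IL-6, gave 0.11 (FDR 0.247), -0.20 (FDR 0.183) and 0.12 (FDR 0.174), with a sign at Years 0.5 and 2 that turned under other scalings. Tnfrsf1b, the TNF receptor common on leukocytes and endothelium, rose at all 3 time points by 0.56 (SE 0.12, FDR 0.00642), 0.50 (SE 0.08, FDR 0.00114) and 0.75 (SE 0.07, FDR 3.90e-05), below the fold limit. Its TPM at Year 2 was 45.2, 55.7 and 50.4 in control rats and 73.2, 72.6 and 72.6 in MWCNT-treated rats. These groups did not overlap, which in CPM 59.9% of all genes also showed at Year 2.

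Neither feedback inhibitor changed significantly at any time point. Socs3 TPM at Year 0.5 was 97.6, 147 and 78.3 in control rats and 87.3, 72.2 and 59.8 in MWCNT-treated rats, which overlapped. The log2 fold change of Socs3 was -0.41 (SE 0.22, FDR 0.175, edgeR), 0.34 (SE 0.27, FDR 0.338) and -0.25 (SE 0.16, FDR 0.217), and its 95% interval over the 3 years ran from -0.41 to 0.20. Tnfaip3 gave 0.13 (SE 0.18, FDR 0.597), 0.27 (SE 0.17, FDR 0.227) and -0.16 (SE 0.11, FDR 0.287), with an interval of -0.13 to 0.29 over the 3 years. Both 95% intervals are normal approximations from the SE, which are too narrow at this number of rats. Groups overlapped at every time point for both genes.

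The change under MWCNT was not shown to differ between Year 2 and Year 0.5 for any member. In edgeR's interaction test 0 of 10 members had an FDR below 0.05 (1.31% of all genes did, 0.856% higher and 0.451% lower), 1 had an unadjusted p below 0.05, which was Osmr at 0.43 (SE 0.17, FDR 0.252), beside 13.8% of all genes, and DESeq2 also called 0. Between Year 2 and Year 0.5, 0 members were DEGs in control rats (0.633% of all genes, 0.451% higher and 0.182% lower) and 0 in MWCNT-treated rats (2.34%, with 1.44% higher and 0.903% lower), by edgeR and by DESeq2. By FDR alone, 6.65% of all genes moved with time in control rats and 13.5% in MWCNT-treated rats. An unadjusted p below 0.05 was found for 1 member in control rats, Osm, and for 2 in MWCNT-treated rats, Osmr and Tnfrsf1b, beside 24.0% and 27.7% of all genes. Tnfrsf1b rose with time in treated rats by 0.33 (SE 0.10, FDR 0.0342, and 0.0539 without the filter), and the value in control rats was 0.13 (FDR 0.455).

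Of the wider pathways, 107 listed genes were in the table, and 101 of them were tested at each time point. DEGs among the 101, counting the members, were 8 upregulated and 1 downregulated at Year 0.5, 14 and 1 at Year 1, and 15 and 4 at Year 2. Over all genes the upregulated and downregulated shares were 6.07% and 3.03%, 6.13% and 4.09%, and 8.17% and 8.22% in these years. At Year 0.5 the total among the listed genes was near the 9.10% of all genes. The median log2 fold change of the listed genes was 0.14, 0.21 and 0.17, beside -0.02, 0.00 and -0.01 for all genes tested. At all 3 time points 9 listed genes were DEGs, 8 upregulated and 1 downregulated, beside 4.23% and 1.18% of the 14108 genes tested in every year. The monocyte attractant Ccl2 had log2 fold changes of 3.80, 4.86 and 3.72, and its TPM at Year 2 was 6.50, 6.53 and 7.36 in control rats and 80.4, 76.1 and 75.3 in MWCNT-treated rats. The neutrophil attractant Cxcl1 had 1.17, 2.14 and 1.93.

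Among STAT3 targets, the siderophore-binding protein gene Lcn2 had log2 fold changes of 2.85, 3.38 and 3.28, and the kinase gene Pim1 had 1.17, 1.15 and 1.20. Among NF-kB targets and regulators, the mitochondrial superoxide dismutase gene Sod2 had 1.44, 1.75 and 1.73, Tnfaip2 had 1.02, 1.44 and 1.45, and Tnip3, which encodes a binding partner of A20, had 1.68, 1.44 and 1.87. The FDR of these genes was 0.0155 or lower at each time point in edgeR's test. Cntfr, the receptor of ciliary neurotrophic factor and a further gp130 partner, was the downregulated gene, with -1.19 (FDR 0.00498), -1.78 (FDR 0.00076) and -2.56 (FDR 0.000495). Its interaction of treatment with Year 2 against Year 0.5 was -1.37 (FDR 0.187, edgeR), which was not significant. Of the 15 genes of the JAK-STAT relay and its inhibitors, 8, 6 and 7 rose at Years 0.5, 1 and 2. Those that fell numbered 2, 0 and 2, and every change was within the fold limit. By FDR alone, 38.8%, 41.2% and 49.2% of all genes moved in either direction. Stat3 was among the relay genes that rose, with 0.37, 0.28 and 0.35. Upregulated DEGs were 6.07%, 6.13% and 8.17% of all genes by year. Of the 10 listed STAT3 targets, 2, 4 and 4 were upregulated DEGs by year, and Il4r was a downregulated DEG at Year 2 (-1.03). Of the 17 listed NF-kB targets, 4, 4 and 5 were upregulated DEGs, and 13, 13 and 12 were not DEGs. Icam1, 1 of these targets, fell at Year 0.5 (-0.26, FDR 0.0269, edgeR) and Year 2 (-0.54, FDR 0.00059).

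**Figure D5:**
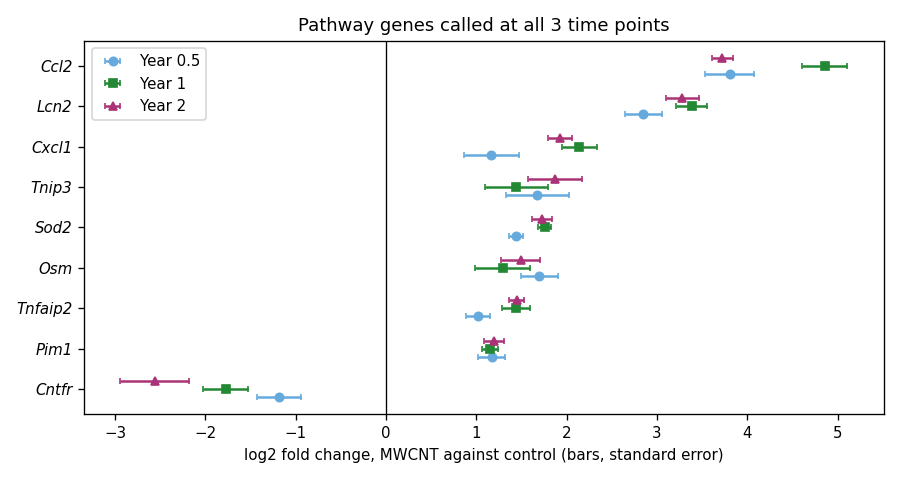
log2 fold change with SE bars at Years 0.5, 1 and 2 for the 9 pathway genes that were DEGs at all 3 time points. Ccl2 lies between 3.72 and 4.86. Cntfr is at -1.19 at Year 0.5 and -2.56 at Year 2, a difference that was not significant (interaction FDR 0.187, edgeR).

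The genes with profiles nearest to Osm over the 18 rats, by the root mean square difference of centred log2 CPM, were Itgax (0.244), Ccnf (0.250) and Iqgap3 (0.259), where the spread of Osm itself was 0.836. Itgax encodes the integrin CD11c of alveolar macrophages and dendritic cells, but Ccnf and Iqgap3 lay about as near. Which cells expressed Osm was not tested. The nearest to Il6 were AABR07038029.1 (0.438), Pclaf (0.462) and Scimp (0.465), against a spread of 1.04. Socs3 was nearest to the stress-response gene Ppp1r15a (0.255), Tgif2 (0.262) and the AP-1 subunit gene Jund (0.266), against 0.464. For the Tnf entry the nearest genes, RGD1565617_1 (1.98), Lrrtm4 (2.06) and AABR07051733.3 (2.07), lay almost as far away as its own spread of 2.53.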

How the data were processed

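Lung RNA was sequenced, and the authors used CLC Genomics Workbench 22.0.2 for mapping and counting. The builds named in the submitters' processing notes are Rnor_6.0 and rn6. The deposited tables hold raw counts, TPM and RPKM per gene and rat. RPKM served only to check gene lengths. Left unused were 18 deposited CPM columns and the columns of the authors' comparisons, which hold the larger group mean, fold changes and p-values. How multiply mapping reads were treated is not given in the sources used here.

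Counts were tested with edgeR 4.0.16 in R 4.3.3 (filterByExpr defaults, TMM, quasi-likelihood test, Benjamini-Hochberg adjustment over all genes tested) for the 6 rats of each year, and in 1 model of 18 rats for the mean of the 3 years, the interaction and time within treatment. Alternatives used DESeq2 1.42.0, limma 3.58.1 on log2(TPM + 1) and log2(TPM + 0.1), other filters and scalings, a replicate block and each rat left out. Each SE given with edgeR is the absolute log2 fold change divided by the square root of the test's F statistic. The depth was 13297643 to 21130757 reads per rat. On simulated data, the test at FDR under 0.05 recovered 92, 85 and 85% of 100 genes changed 2-fold at Years 0.5, 1 and 2. The same runs held 100 more genes changed 4-fold, of which 99, 99 and 97% were recovered. Every simulated gene had the same spread between rats. False calls over each whole run numbered 13, 11 and 8, with 14338, 14350 and 14390 genes run. The recovered shares use the FDR alone, without the fold limit of a DEG. Recovery at the spread that each member showed between rats was not tested. Named genes were the 10 members, listed pathway genes that were DEGs at all 3 time points and the 3 genes nearest to Il6, Osm, Tnf and Socs3. Lifr, Stat3, Il4r, Icam1, the cell type markers named singly and the Tnf sum were added after their values were seen. The members and lists were chosen with earlier results of these data known. P-values measure the spread between rats.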

Additional observations from a re-analysis of the deposited data

Results flagged for a closer look

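Timp1, a STAT3 target that encodes an inhibitor of metalloproteinases, was flagged because its change under MWCNT differed between time points. Its log2 fold change was 0.69 at Year 0.5 and 1.36 at Year 2, and the interaction was 0.678 (FDR 0.0396, edgeR). It was 1 of 103 listed pathway genes with such an interaction, a share below the 1.31% of all genes, and no member was flagged.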

How the results depend on the processing

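Over 884 recomputed values, 806 kept their direction and side of the threshold, or a count within 1.5 times. Members called at Year 0.5 numbered 1, and 3 without the filter, 3 with all rats in the fit, 5 by FDR alone and 2 to 4 when a rat was left out. At Year 1 they numbered 3, and 1 with library size scaling, 0 with limma on log2(TPM + 1) and 1 with limma on log2(TPM + 0.1). Over the 3 years they numbered 5, and 2 with at least 10 reads in every rat, 0 and 2 with the same limma fits. FDR alone called 1 member over time in treated rats. Pathway genes called were 9, 15 and 19 by year, and 51, 53 and 59 by FDR alone, 8 at Year 1 with limma on log2(TPM + 1), and 9 to 14 at Year 0.5 when a rat was left out. The log2(TPM + 1) scale shrinks the changes of low genes. With library size scaling the median of all genes shifted by -0.10, -0.13 and -0.17 by year, and with limma on log2(TPM + 1) by -0.13, -0.21 and -0.19.

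Signs turned for genes that were not called. With limma, Il6r at Year 0.5 was -0.0396 and -0.0405 at pseudocounts of 1 and 0.1, and Tnfaip3 was -0.0418 and -0.0445. Il6r at Year 2 was -0.0500 with library size scaling, and -0.0954 and -0.0974 with limma. Il6r over the 3 years was -0.13 with library size scaling, -0.0369 with upper quartile scaling, and -0.18 and -0.19 with limma, and Tnfaip3 was -0.0539, -0.12 and -0.13 with library size scaling and limma. With a rat left out, Il6r over the 3 years ran from -0.0304 to 0.0370, Tnfaip3 from -0.00076 to 0.15 and, at Year 0.5, from -0.11 to 0.31, and Socs3 over the 3 years from -0.18 to 0.0383.

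Osmr at Year 0.5 passed the fold limit without control rat 1 (1.03) or treated rat 3 (1.07), and Lif without control rat 2 (1.09) or treated rat 3 (1.15). The Tnf entry at Year 2 was 5.87 (FDR 0.0401, edgeR) without control rat 1, the control rat whose reads lay under Tnf. Lif at Year 1 lost its call in 7 of 8 other alternatives. With the replicate number as a block, 1, 2 and 3 members were called by year, and 9, 15 and 20 pathway genes. The correlation of same-numbered rats was 0.00685 on average (-0.147 to 0.107), above 0.1 in 1 of 9 pairs. At this depth Il6 could not be tested in single years with the filter.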
